A study of Homo sapiens with 6 samples.

Results

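The ADAM, ADAMTS and ADAMTSL genes encode metalloproteases and their protease-free relatives. They were taken as every gene whose symbol is one of these names followed by a number and that had a probe set of its own on the array. This gave 42 of the 18132 genes measured, made up of 19 ADAM, 18 ADAMTS and 5 ADAMTSL genes, read by 114 probe sets. Each gene was represented by its brightest probe set on average. Genes of this family with a mean log2 value under 5, 21 of the 42, are called dim. The members nearest to that limit were ADAMTS14 (mean log2 value 4.93) and ADAM11 (4.93) below it and ADAMTS18 (5.24) and ADAMTS15 (5.24) above it. RefSeq lists ADAM7 and ADAMTS7 as well, which are not analysed here.

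ADAM proteins are mostly anchored in the cell membrane, where those with a working zinc site cut the extracellular part off neighbouring membrane proteins, a step called shedding that releases growth factors and cytokines and starts Notch signalling. ADAMTS proteins are secreted, bind the extracellular matrix through thrombospondin repeats and cut proteoglycans, procollagens and other matrix proteins. ADAMTSL proteins keep the matrix-binding repeats but lack the protease domain. In epithelial tumours, thyroid carcinoma included, these enzymes are studied for growth factor release and matrix remodelling.

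The cells were BCPAP, an established line from a human papillary thyroid carcinoma. They had received lentivirus with a short hairpin RNA targeting CSF2, which encodes GM-CSF, a myeloid growth factor (shCSF2, 3 arrays), or with a non-targeting hairpin (shCtrl, 3 arrays). Both groups carried the vector and were held in puromycin for 7 days, beginning 48 hours after transduction. The labels call the 3 arrays of a group biological replicates, and neither the number of hairpins nor whether transductions were separate is stated there. Total RNA was read on Affymetrix PrimeView arrays, whose probes lie near the 3' end of transcripts.

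The median log2 value per array was 5.77 to 5.79, and no pair of arrays held identical values. No probe set was paired with CSF2, so the knockdown itself was not checked here. Thyroid transcription factor genes NKX2-1 (mean log2 value 9.57) and PAX8 (8.09) and the keratin genes KRT7, KRT8 and KRT18 were above the dim limit. So were FOXE1, HHEX and EPCAM, whereas the keratin gene KRT19 and the thyroid genes TG and TSHR were dim. Of these 11 markers, NKX2-1 (-0.42) and KRT8 (-0.26) fell in shCSF2 cells, 0 rose and 9 did not pass. The leukocyte gene PTPRC was dim (2.34), as were 6 of 8 leukocyte markers. The mean level of 9 fibroblast markers, 5 of them dim, ranged from 4.76 to 4.86 in shCSF2 and from 4.96 to 5.07 in shCtrl arrays. Of these, THY1 and POSTN passed as lower and 7 did not pass, with a median log2 fold change of -0.05 over the 9. The mean level of 7 endothelial markers, 2 of them dim, ranged from 5.02 to 5.09 in shCSF2 and from 5.16 to 5.21 in shCtrl arrays. Only TEK, a dim gene, passed as lower (-0.25), and 6 did not pass. The part of these marker shifts in the results was not tested. In RNA from a whole culture, fewer cells of a kind and less RNA per cell cannot be told apart. The log2 difference between the 3' and 5' control probe sets of GAPDH ranged from -0.019 to 0.0021 in shCSF2 and from -0.049 to -0.026 in shCtrl arrays (exact two-sided permutation p = 0.1, the smallest that 3 arrays against 3 allow). For ACTB this difference overlapped between the groups (exact two-sided permutation p = 0.6).

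Of the 42 members, 7 rose and 6 fell in shCSF2 cells and 29 did not pass the test (limma, Benjamini-Hochberg adjusted p of 0.05 over all genes). The 13 that passed are 31% of the members, near the 32.7% of all genes that passed. By direction, 16.7% of members rose, as did 16.7% of all genes, and 14.3% fell, against 16% of all genes. Among the 21 members that were not dim, 7 rose and 4 fell, where 43.4% of all genes at that level passed, 23.2% as higher and 20.2% as lower. Of these 7, ADAMTS18 was above the dim limit only through its shCSF2 arrays (mean log2 value 5.69, against 4.79 in shCtrl). By limma, 0 of the 21 dim members rose and 2 fell, against 9.27% of all dim genes passing, 2.69% as higher and 6.58% as lower. At an unadjusted p of 0.05, 1 dim member was higher and 4 were lower. Of all 18132 genes, 3661 were higher and 4033 lower by limma at that unadjusted p. The median log2 fold change of the members was -0.05, beside -0.03 over all genes, and the median absolute change was 0.15, beside 0.11. In 21 members the values of the groups did not overlap, 10 higher and 11 lower in shCSF2, against 46.7% of all genes, 22.1% higher and 24.6% lower. Of these, 17 were not dim, where 60% of all genes at that level were apart (30% in each direction), and 4 were dim, where 17.4% were (4.7% higher and 12.7% lower). Changes were small. A call with a change of at least 1.5-fold was made for 1 of the 42 members, ADAMTS18, and for 431 of the 18132 genes.

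The members that rose were 5 of the 18 ADAMTS genes, ADAMTS18, ADAMTS6, ADAMTS5, ADAMTS16 and ADAMTS1, with the ADAM genes ADAM12 and ADAM17. Those that fell were ADAM19, ADAM28, ADAM33 and ADAMTSL2, with the dim genes ADAM21 and ADAM2. No ADAMTS gene passed in the lower direction by limma, where 1 (ADAMTS10) was lower at an unadjusted p of 0.05. Of the 18 ADAMTS genes 27.8% rose and 0% fell, against 16.7% and 16% of all genes. Dim genes made up 10 of the 18, and of all dim genes 2.69% rose and 6.58% fell. Without shCSF2 replicate 3 ADAMTS10 passed as lower, and ADAMTS12 and ADAMTS4 did so in the fit on averaged probe sets.

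**Figure D1:**
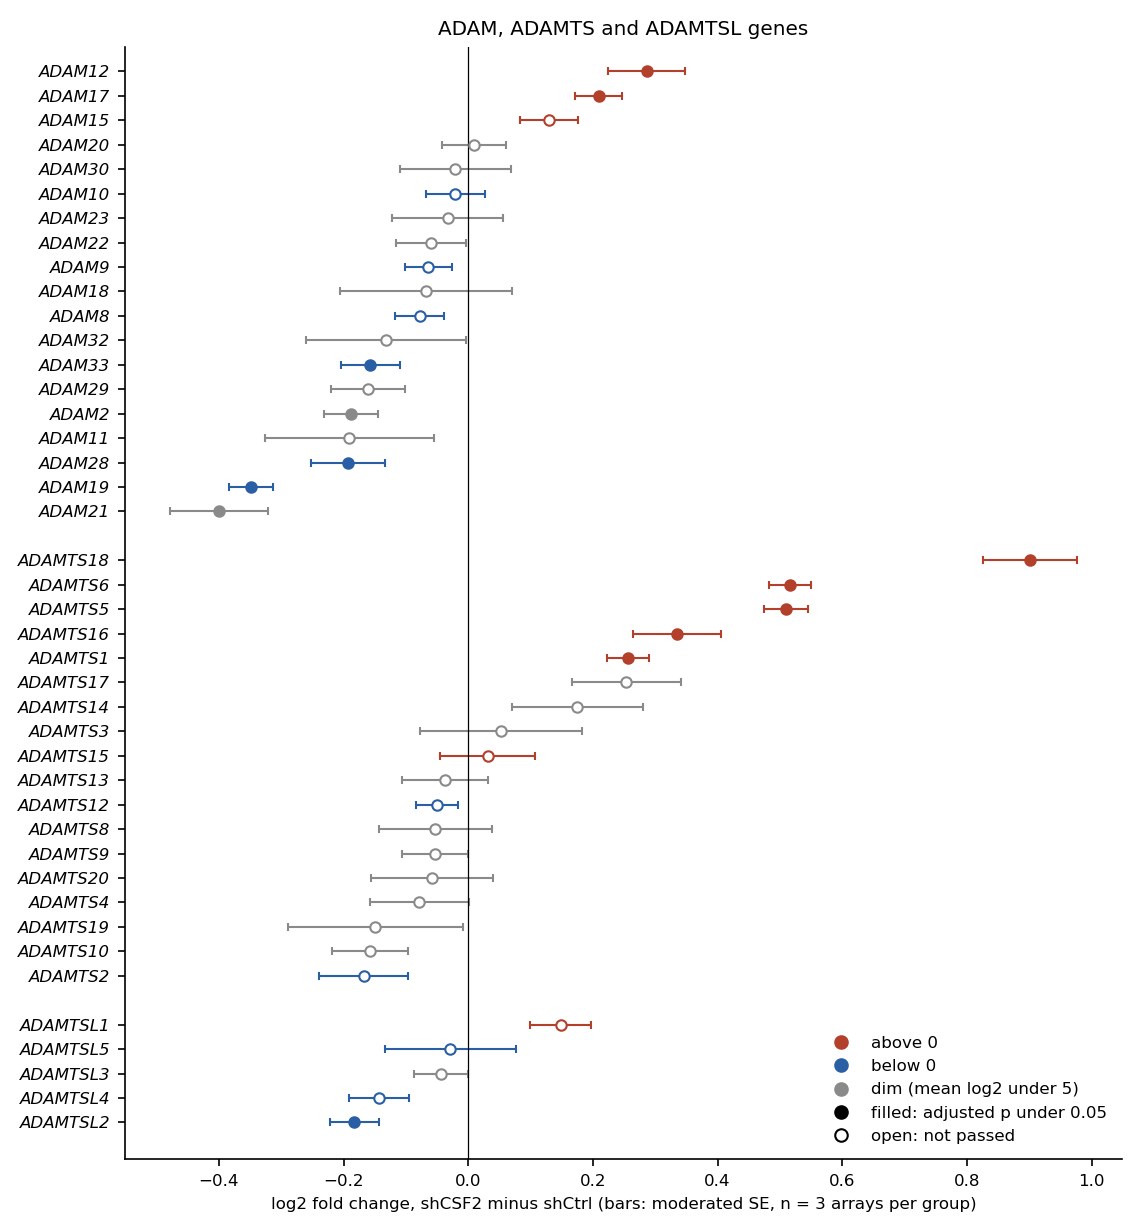
Log2 fold change (shCSF2 minus shCtrl, horizontal axis) of the 42 genes, grouped by subfamily and ordered by value, with moderated standard errors from 3 arrays per group. Filled points passed the test and grey points are dim genes; ADAMTS18 lies farthest to the right at 0.90 and ADAM21 farthest to the left at -0.40.

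ADAMTS18, a secreted protease whose gene is mutated in an inherited eye disorder, showed the largest change of the family. Its log2 values were 5.82, 5.64 and 5.61 on the shCSF2 arrays and 4.91, 4.73 and 4.73 on the shCtrl arrays. Every shCSF2 array lay above every shCtrl array, and the shCtrl values fell below the dim limit while the shCSF2 values did not. The rise was 1.87-fold (log2 fold change 0.90 ± 0.08, SE, n = 3 per group, limma adjusted p = 0.000221). Of its 4 probe sets 3 passed as higher, with log2 fold changes of 0.90, 0.71 and 0.30, and the fourth, at 0.12, did not pass. Averaged over all 4 the change was 0.51.

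ADAMTS16, the closest relative of ADAMTS18 in the family, rose 1.26-fold. It read 5.57, 5.69 and 5.55 in shCSF2 and 5.22, 5.18 and 5.41 in shCtrl cells. Replicate 3 of shCtrl was the highest of its group, still below every shCSF2 array. The log2 fold change was 0.34 ± 0.07 (limma adjusted p = 0.0104), and its second probe set also passed, at 0.38.

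ADAMTS6 acts on fibrillin microfibrils, the fine matrix fibres that hold latent TGF-beta. Its values were 7.54, 7.50 and 7.50 in shCSF2 and 6.99, 6.97 and 7.03 in shCtrl cells, well apart on all arrays. The rise was 1.43-fold (0.52 ± 0.03, limma adjusted p = 9.88e-05), the lowest adjusted p of the family. Both probe sets passed, at 0.52 and 0.41. ADAMTS10, its nearest relative, was dim, at 3.38, 3.45 and 3.57 in shCSF2 and 3.70, 3.57 and 3.61 in shCtrl cells, and did not pass (-0.16 ± 0.06, limma adjusted p = 0.0909).

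Among the 7 ADAMTS proteoglycanases, which cut versican and aggrecan, 2 rose and 0 fell (0 also at an unadjusted p of 0.05 by limma). The 28.6% that rose stood against 16.7% of all genes, and the 0% that fell against 16%. Since 4 of the 7 were dim, fewer calls are to be looked for. Of all dim genes 2.69% rose and 6.58% fell. ADAMTS5, the main aggrecan-cutting enzyme of cartilage, read 7.20, 7.16 and 7.23 in shCSF2 and 6.70, 6.69 and 6.68 in shCtrl cells. The arrays of a group lay close together and the groups were clearly separate. It rose 1.42-fold (0.51 ± 0.03, limma adjusted p = 0.000108). Of its 4 probe sets 3 passed as higher, at 0.76, 0.51 and 0.26, and the remaining one read 0.15.

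ADAMTS1, a versican-cutting enzyme that is also induced in inflammation and ovulation, read 9.82, 9.87 and 9.85 in shCSF2 and 9.60, 9.58 and 9.58 in shCtrl cells. Its groups were apart with a smaller step, 1.19-fold (0.26 ± 0.03, limma adjusted p = 0.00129), and both of its probe sets passed (0.26 and 0.30). The remaining proteoglycanases were ADAMTS15, which was above the dim limit and read 5.25, 5.19 and 5.33 against 5.06, 5.32 and 5.29, and the dim genes ADAMTS4, ADAMTS8, ADAMTS9 and ADAMTS20. Their log2 fold changes lay between -0.08 and 0.03 and their groups overlapped.

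**Figure D2:**
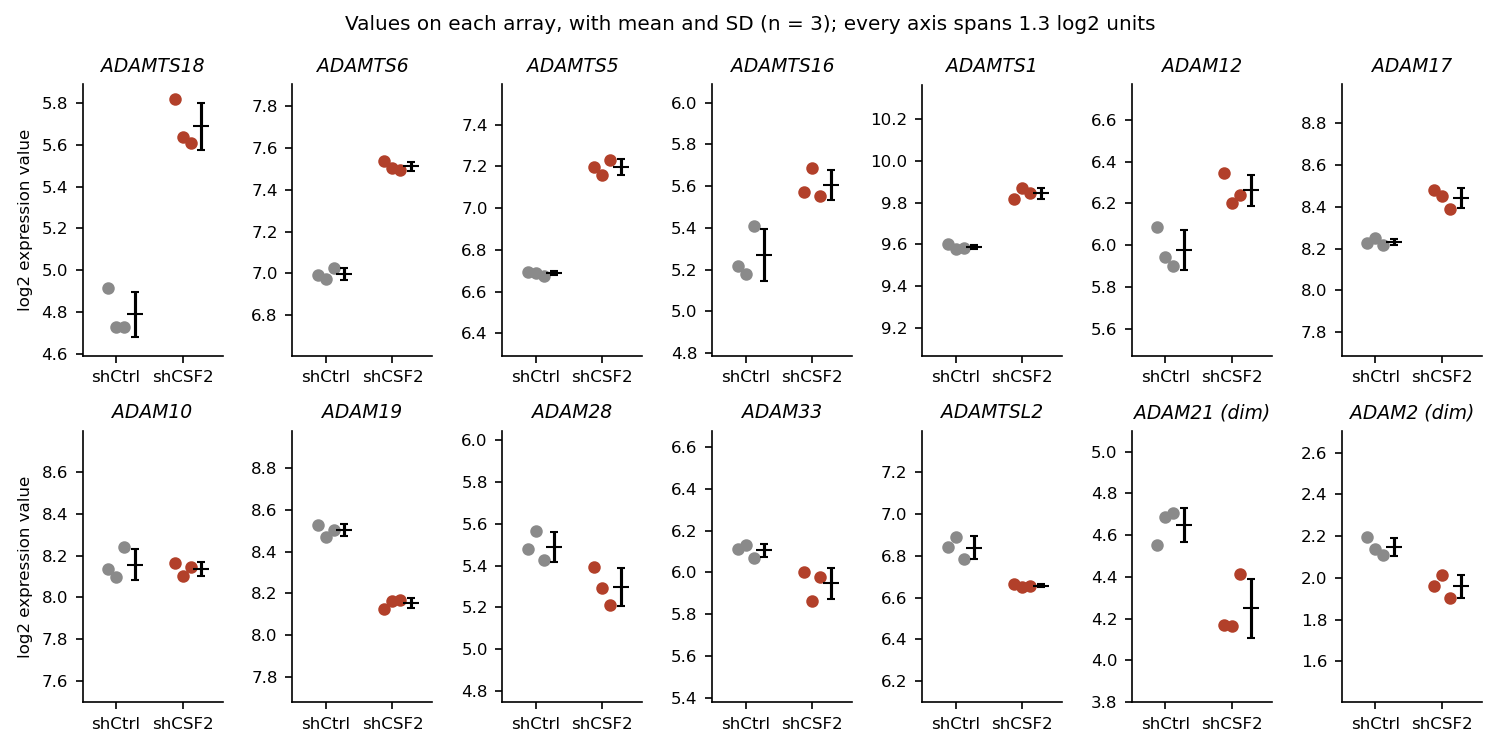
Log2 expression value (vertical axes, all of equal span) on each of the 3 shCtrl (grey) and 3 shCSF2 (red) arrays for the 13 members that passed and for ADAM10, with the mean and SD beside the points. The groups do not overlap in any panel but that of ADAM10, and the steps are largest for ADAMTS18, ADAMTS6 and ADAMTS5.

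The other ADAMTS genes did not pass. The procollagen N-propeptidases ADAMTS2, ADAMTS3 and ADAMTS14, which trim fibrillar procollagens, had log2 fold changes from -0.17 to 0.18, and 0 were called in either direction by limma, also at an unadjusted p of 0.05. The second probe set of ADAMTS14, also dim, went the other way from its brightest and passed as lower (-0.14, limma adjusted p = 0.0248 over all probe sets). ADAMTS2 alone of these was not dim, and its shCSF2 arrays, at 5.39, 5.65 and 5.60, lay below the shCtrl arrays, at 5.76, 5.69 and 5.69 (-0.17 ± 0.07, limma adjusted p = 0.122, 95% interval -0.34 to 0.0023). ADAMTS12, which can degrade the cartilage protein COMP, read 8.12, 8.10 and 8.15 against 8.17, 8.17 and 8.18 (-0.05 ± 0.03, 95% interval -0.13 to 0.029). ADAMTS17, ADAMTS13, which cuts von Willebrand factor, and ADAMTS19 were dim, with 0.25, -0.04 and -0.15.

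ADAM17 is the sheddase that releases TNF and most ligands of the EGF receptor. It read 8.48, 8.45 and 8.39 in shCSF2 and 8.23, 8.25 and 8.22 in shCtrl cells, without overlap. The rise was 1.16-fold (0.21 ± 0.04, limma adjusted p = 0.00535). Only this 1 of its 4 probe sets passed on its own, the others reading 0.21, 0.11 and 0.06. With the most variable probe set the value was 0.21 and the adjusted p 0.118.

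ADAM10 cuts Notch receptors and cadherins, and its 4 probe sets did not give 1 answer. The probe set with the highest mean read 8.16, 8.10 and 8.14 in shCSF2 and 8.13, 8.10 and 8.24 in shCtrl cells, with overlapping groups (-0.02 ± 0.05, limma adjusted p = 0.774, 95% interval -0.13 to 0.091). The other 3 were all lower without overlap, at -0.24, -0.23 and -0.22 (limma adjusted p over all probe sets 0.00312, 0.00547 and 0.00542). The first of these read 7.89, 7.92 and 7.94 in shCSF2 and 8.15, 8.13 and 8.17 in shCtrl cells. The mean of all 4 probe sets was -0.18 (limma adjusted p = 0.0058). All 4 were below 0, and whether ADAM10 was called depended on the probe set. Of the 3 that passed, 2 share 1 annotated transcript.

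ADAM9, another membrane sheddase, looked similar, and is described after its values were seen. Its brightest probe set did not pass (-0.06 ± 0.04, limma adjusted p = 0.243), while 2 of the other 3 passed as lower, at -0.16 and -0.14. On the first of these the arrays read 9.13, 9.12 and 9.14 in shCSF2 and 9.31, 9.23 and 9.33 in shCtrl cells. Averaged over all 4, ADAM9 was called lower (-0.13).

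ADAM19, which sheds neuregulins, fell most among members above the dim limit. It read 8.13, 8.17 and 8.17 in shCSF2 and 8.53, 8.47 and 8.51 in shCtrl cells, with tight groups far apart. The fall was 1.27-fold (-0.35 ± 0.035, limma adjusted p = 0.000448). It came from 1 of 4 probe sets. The others, with means of 5.01, 4.84 and 3.31, read -0.01, 0.09 and 0.08 and did not pass, and the average over all 4 was -0.05 (adjusted p = 0.285).

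ADAM12 has a long, membrane-bound and a short, secreted form, and its 5 probe sets disagreed. The probe set used read 6.35, 6.20 and 6.24 in shCSF2 and 6.08, 5.94 and 5.90 in shCtrl cells, a rise of 1.22-fold (0.29 ± 0.06, limma adjusted p = 0.0114). A probe set annotated with the long form, whose mean was under the dim limit, read 4.29, 4.70 and 4.67 in shCSF2 and 4.97, 5.09 and 4.93 in shCtrl cells and passed as lower (-0.44, limma adjusted p = 0.0238 over all probe sets). The probe set annotated with the short form was dim too, at 3.72, 3.62 and 3.65 against 3.57, 3.55 and 3.52, and did not pass (0.12). In all 5 probe sets the groups were apart, 2 with shCSF2 above and 3 with shCSF2 below. The mean of all 5 was -0.09 (adjusted p = 0.0883), so ADAM12 has no settled direction. It was the only member with probe sets passing both ways.

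**Figure D3:**
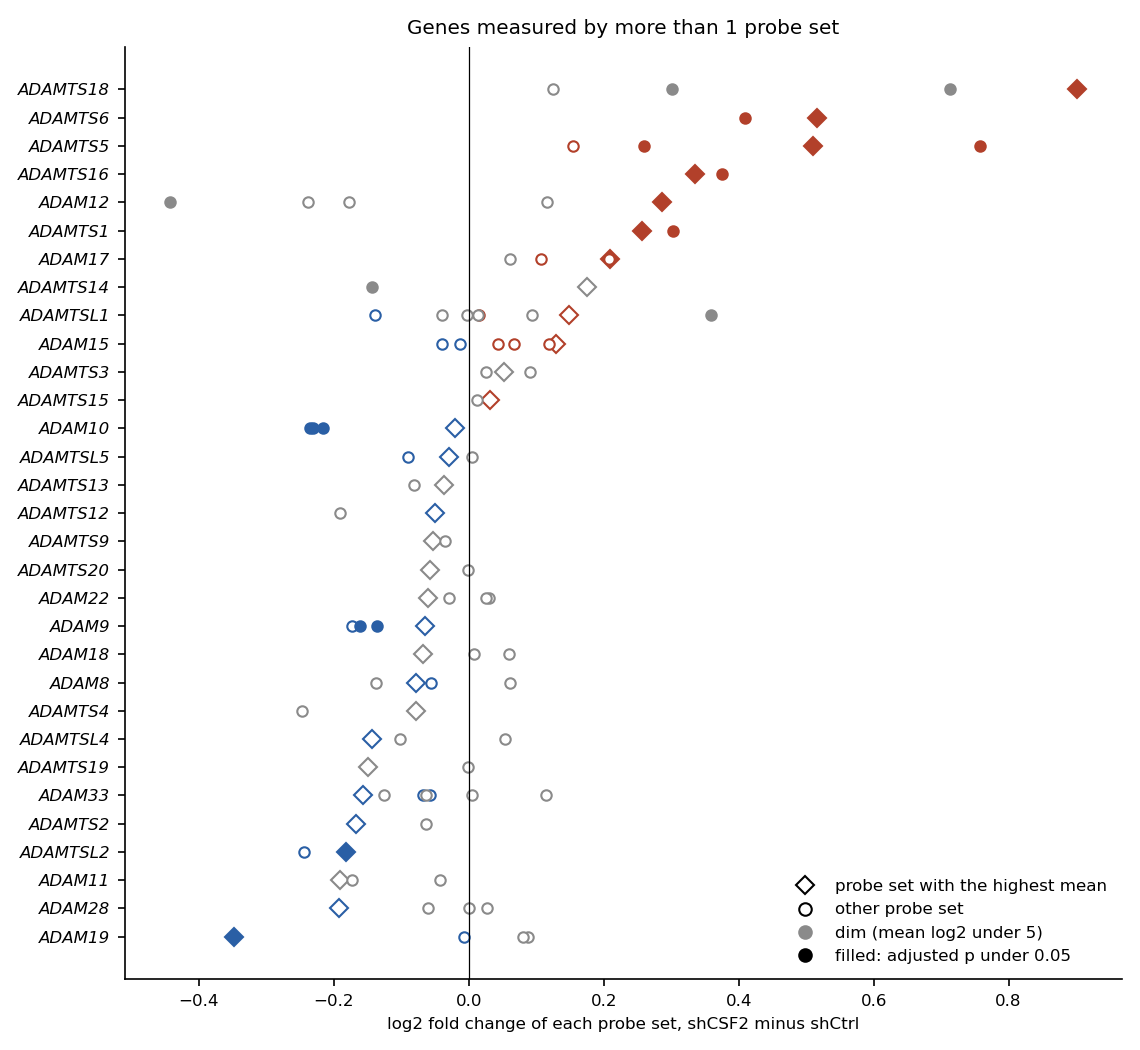
Log2 fold change (shCSF2 minus shCtrl, horizontal axis) of every probe set of the 31 genes with more than 1; diamonds mark the probe set that stood for the gene, grey marks are dim and filled marks passed with p-values adjusted over all probe sets. ADAMTS18, ADAMTS6, ADAMTS5, ADAMTS16 and ADAMTS1 have all marks to the right of 0, ADAM10 has 3 filled marks to the left of its open diamond, and ADAM12 has filled marks on both sides.

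ADAM28, a sheddase reported in several carcinomas, and ADAM33, linked by genetics to asthma, fell close to the threshold. ADAM28 read 5.39, 5.29 and 5.21 in shCSF2 and 5.48, 5.57 and 5.43 in shCtrl cells (-0.19 ± 0.06, limma adjusted p = 0.0458). Its call was lost under a further quantile step (adjusted p = 0.0743), median centring (0.0591) and cyclic loess (0.0837), and in the fit over probe sets (0.0530). ADAM33 read 6.005, 5.86 and 5.98 against 6.11, 6.13 and 6.07 (-0.16 ± 0.05, limma adjusted p = 0.0412). The groups of both were only just apart. When single arrays were left out, the call of each survived only without shCSF2 replicate 1. It was lost without any of the other 5 arrays, with an adjusted p of up to 0.129 for ADAM28 and 0.114 for ADAM33. Averaged over its 4 probe sets ADAM28 was -0.06, and over its 7 ADAM33 was -0.05, and neither average passed.

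ADAM15 and ADAM8, the remaining sheddases, did not pass in the fit over all genes. ADAM15 read 7.32, 7.44 and 7.43 in shCSF2 and 7.21, 7.27 and 7.31 in shCtrl cells (0.13 ± 0.05, limma adjusted p = 0.0776), just apart. It was called higher in 4 of 17 fits, which were those with either filter on dim genes (adjusted p = 0.0368 and 0.0184), with a variance trend (0.0312) and without shCSF2 replicate 1 (0.0436). ADAM8 read 5.76, 5.76 and 5.81 against 5.91, 5.84 and 5.82 (-0.08 ± 0.04, 95% interval -0.17 to 0.015).

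The ADAMs known mainly from germ cells were all dim in both groups. ADAM21 read 4.17, 4.16 and 4.41 in shCSF2 and 4.55, 4.69 and 4.70 in shCtrl cells (-0.40 ± 0.08, limma adjusted p = 0.00776), from 1 probe set. Its sequence has a pseudogene copy, and the 1 probe set annotated with both was left out. ADAM2, a sperm-surface protein, fell from a mean log2 value of 2.15 to 1.96 (-0.19 ± 0.04, limma adjusted p = 0.0147), a level near the bottom of the scale, and lost its call without shCtrl replicate 1 (adjusted p = 0.0520) and with a variance trend (0.109). ADAM18, ADAM20, ADAM29, ADAM30 and ADAM32 lay between -0.16 and 0.01 and did not pass. ADAM11, ADAM22 and ADAM23, which lack a zinc site and serve as synaptic receptors for LGI proteins, were dim as well, at -0.19, -0.06 and -0.03, and 0 were called by limma, also at an unadjusted p of 0.05.

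Of the 5 ADAMTSL genes, 1 fell and 0 rose by limma (2 lower and 1 higher at an unadjusted p of 0.05). That is 20% lower and 0% higher, against 16% and 16.7% of all genes. At the unadjusted p, 4033 of all 18132 genes were lower and 3661 higher by limma. ADAMTSL2, which binds fibrillin and a latent TGF-beta binding protein, read 6.66, 6.65 and 6.66 in shCSF2 and 6.84, 6.89 and 6.78 in shCtrl cells, with no spread to speak of in the shCSF2 group. It fell 1.13-fold (-0.18 ± 0.04, limma adjusted p = 0.0108), and its second probe set read -0.24 with an adjusted p of 0.0503 over all probe sets. ADAMTSL1 read 6.31, 6.22 and 6.38 against 6.19, 6.13 and 6.13 (0.15 ± 0.05, limma adjusted p = 0.0563). It was called higher in 7 of 17 fits, and 1 of its 8 probe sets, which was dim, passed as higher at 0.36 (limma adjusted p = 0.0330 over all probe sets). ADAMTSL4, a fibrillin-1 partner in the lens zonule, read 5.69, 5.67 and 5.77 against 5.79, 5.86 and 5.92 (-0.14 ± 0.05, limma adjusted p = 0.0618). ADAMTSL3 and ADAMTSL5 lay at -0.04 and -0.03.

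Promoter sequence was taken from the RefSeq table (GRCh38.p14) for 28 members, 7 of the 13 that passed among them. The lookup left out a chromosome named under Other observations, so a member missing here may still have an entry. The 250 bases before the annotated start are shown 5′ to 3′ on the gene's strand for the members with the largest rises and the largest fall above the dim limit that had an entry, and for ADAM17. Capitals mark matches to a GC box (GGGCGG, either strand). No AP-1 (TGANTCA), CRE (TGACGTCA), C/EBP-ATF (TGATGNAA), EGR (GCGNGGGCG) or TATAAA match on either strand lay in these windows. ADAMTS18 is at chr16:77435035-77435284, ADAMTS6 at chr5:65481921-65482170, ADAM19 at chr5:157575776-157576025 and ADAM17 at chr2:9555831-9556080, all on the minus strand.
ADAMTS18: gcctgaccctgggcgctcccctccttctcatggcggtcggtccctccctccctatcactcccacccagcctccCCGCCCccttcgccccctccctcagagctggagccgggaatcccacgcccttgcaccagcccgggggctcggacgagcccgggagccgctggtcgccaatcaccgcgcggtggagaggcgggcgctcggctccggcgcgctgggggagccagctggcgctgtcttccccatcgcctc
ADAMTS6: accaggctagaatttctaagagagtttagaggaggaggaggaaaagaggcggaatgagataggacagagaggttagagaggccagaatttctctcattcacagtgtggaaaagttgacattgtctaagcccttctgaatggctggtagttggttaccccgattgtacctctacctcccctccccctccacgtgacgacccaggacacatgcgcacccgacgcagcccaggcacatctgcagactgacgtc
ADAM19: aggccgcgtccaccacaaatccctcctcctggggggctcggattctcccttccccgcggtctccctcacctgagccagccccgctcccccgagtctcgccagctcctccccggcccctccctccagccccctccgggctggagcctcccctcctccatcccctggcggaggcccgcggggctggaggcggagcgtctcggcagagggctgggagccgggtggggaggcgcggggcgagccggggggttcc
ADAM17: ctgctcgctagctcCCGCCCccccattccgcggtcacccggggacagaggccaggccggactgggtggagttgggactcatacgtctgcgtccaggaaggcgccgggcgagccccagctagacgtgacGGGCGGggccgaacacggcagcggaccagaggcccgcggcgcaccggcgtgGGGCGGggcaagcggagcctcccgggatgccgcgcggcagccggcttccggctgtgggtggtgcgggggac
ADAM17 held 3 GC boxes, ADAMTS18 held 1, and ADAMTS6 and ADAM19 held 0. Of the 35116 promoters searched, 42.6% held a GC box in the same window, 6.57% an AP-1 site, 1.65% a CRE, 3.14% a C/EBP-ATF site, 8.41% an EGR site and 10.7% TATAAA. An EGR match may overlap a GC box. The GC content was 74.4% for ADAMTS18, 76.4% for ADAM19 and 75.6% for ADAM17, and 52.4% for ADAMTS6. These letters are a description, and the array data do not measure binding there.

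The proteins that hold these enzymes in check or bring them to the surface were read from lists of pathway genes. Of the 5 inhibitor genes, 0 rose and 2 fell by limma (0 and 3 at an unadjusted p of 0.05), with a median log2 fold change of -0.12. Over all 18132 genes 16.7% rose and 16% fell, and at the unadjusted p 3661 were higher and 4033 lower by limma. TIMP3, the matrix-bound inhibitor of ADAM17, ADAM10 and the ADAMTS proteoglycanases, read 6.12, 6.15 and 6.11 in shCSF2 and 6.64, 6.64 and 6.82 in shCtrl cells. All its shCSF2 arrays were lower, by 1.49-fold (-0.57 ± 0.06, limma adjusted p = 0.000383), and its 3 probe sets all passed as lower. TIMP2 was lower by 1.09-fold (-0.12 ± 0.03, limma adjusted p = 0.0347), with neither of its 2 probe sets passing in the fit over probe sets. Its call was lost whichever of the 6 arrays was left out, with an adjusted p of up to 0.0955.

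Of 13 genes that mature or transport ADAM10 and ADAM17, 3 rose and 2 fell (median -0.0023). The 38.5% that passed is near the 32.7% of all genes and the 43.4% of genes not dim. RHBDF2, which encodes an iRhom that escorts ADAM17 to the cell surface, rose 1.26-fold (0.33 ± 0.04, limma adjusted p = 0.0013), by 1 of 3 probe sets. Averaged over all 3 it was 0.08 and did not pass. TSPAN5, a tetraspanin partner of ADAM10, rose 1.24-fold by both its probe sets (0.31 ± 0.04). The related tetraspanin genes TSPAN15 (-0.29 ± 0.05) and TSPAN33 (-0.18 ± 0.04) fell, the latter losing its call without shCSF2 replicate 1 or 2 or without shCtrl replicate 1 or 3 (adjusted p of up to 0.0681).

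Of 7 measured ligands of the EGF receptor family, NRG1 included, 3 rose and 1 fell (median 0.14). Such ligands are shed mainly by ADAM17 and ADAM10. The shares were 42.9% and 14.3%, against 16.7% and 16% of all genes. HBEGF read 11.76, 11.78 and 11.79 in shCSF2 and 11.16, 11.24 and 11.24 in shCtrl cells, a rise of 1.48-fold (0.57 ± 0.04, limma adjusted p = 9.14e-05). EREG rose by 0.35 ± 0.04, or 0.69 by its most variable probe set, and TGFA by 0.20 ± 0.05. EGF, a dim gene, fell (-0.40 ± 0.07). TGFA lost its call when its 4 probe sets were averaged (0.07) and without shCSF2 replicate 1 (0.19) or 2 (0.17) or shCtrl replicate 1 (0.18), with an adjusted p between 0.0529 and 0.0598 in these 3 fits.

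Of 29 other membrane proteins shed by ADAMs, 7 rose and 9 fell (median -0.09), or 24.1% and 31% of the list against 16.7% and 16% of all genes and 23.2% and 20.2% of those not dim. The largest rise was that of VCAM1, a leukocyte adhesion receptor (0.80 ± 0.09, limma adjusted p = 0.000654). The Notch ligand gene JAG1 read 9.18, 9.27 and 9.14 in shCSF2 and 9.99, 10.03 and 9.90 in shCtrl cells, 1.71-fold lower (-0.77 ± 0.05, limma adjusted p = 9.63e-05). The syndecan gene SDC1 (-0.66 ± 0.06) and the complement regulator gene CD46 (-0.47 ± 0.04) also fell, each by all of its probe sets, and JAG1 by 5 of 6. The count that rose was 3 without shCSF2 replicate 1 or shCtrl replicate 1, and 4 without shCSF2 replicate 2 or shCtrl replicate 2 or 3.

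Of 19 matrix substrates and partners of ADAMTS and ADAMTSL proteins, 13 fell and 0 rose by limma (13 and 1 at an unadjusted p of 0.05), 68.4% against the 16% of all genes that fell. Their median log2 fold change was -0.27. Of the 19, 7 were dim, and 3 of these 7 fell. Over all genes, 20.2% of those not dim and 6.58% of the dim ones fell. This list was drawn up with the lower matrix genes of these arrays already known, so the direction is not independent evidence. VCAN, the proteoglycan versican that ADAMTS1 and ADAMTS5 cut, read 9.04, 9.14 and 9.11 in shCSF2 and 9.72, 9.76 and 9.77 in shCtrl cells, 1.57-fold lower (-0.65 ± 0.04, limma adjusted p = 7.72e-05) by all 9 of its probe sets. FBN1, the main fibrillin, was 1.56-fold lower (-0.64 ± 0.04) by all 5, at 9.72, 9.77 and 9.68 against 10.33, 10.40 and 10.38. LTBP1, a latent TGF-beta binding protein, was 1.43-fold lower (-0.52 ± 0.04), or -0.86 by its most variable probe set. COL1A1, a procollagen that ADAMTS2 trims, was 1.91-fold lower (-0.93 ± 0.05) by 1 of 5 probe sets, and -0.25 averaged over all 5. On the same arrays ADAMTS1, ADAMTS5 and ADAMTS6 were higher, as given above, while aggrecan (ACAN), a further substrate, was dim and did not pass (-0.07 ± 0.06). The mean fibroblast marker level given above was lower too, though of its 9 genes only THY1 and POSTN passed. The 1 gene in both lists, COL3A1, was dim at a mean log2 value of 3.33 and did not pass.

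**Figure D4:**
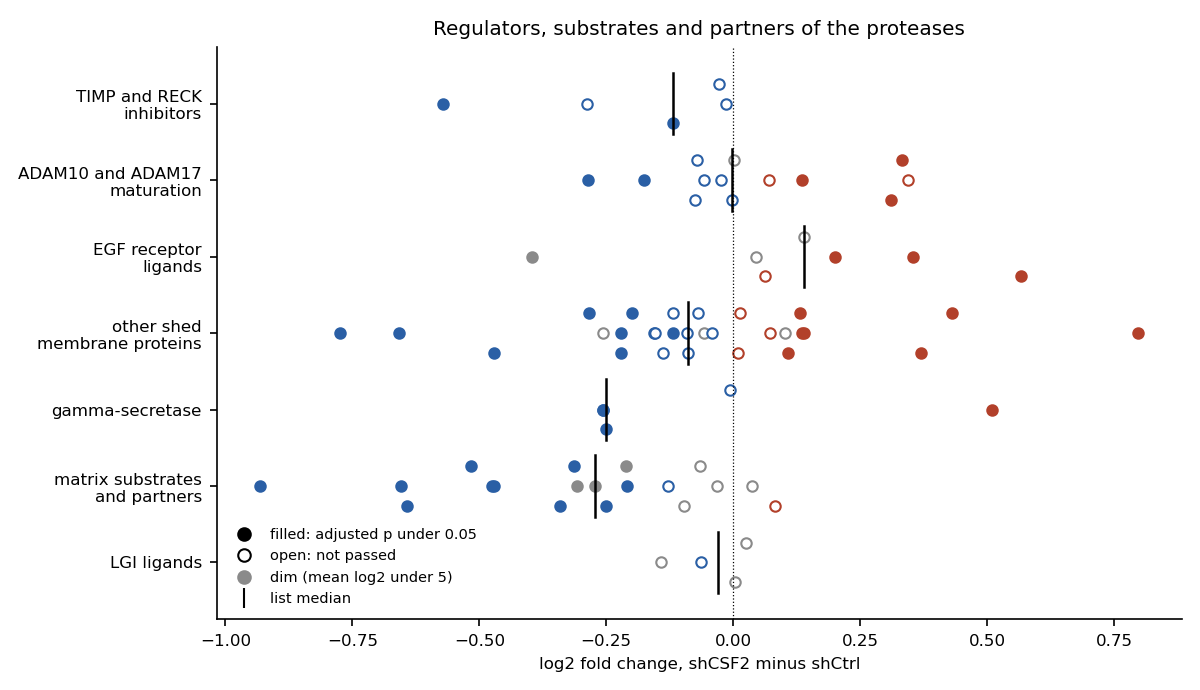
Log2 fold change (shCSF2 minus shCtrl, horizontal axis) of each measured gene in the 7 lists of regulators, substrates and partners; filled points passed, grey points are dim genes and a vertical bar marks the list median. The matrix list has its 13 filled points to the left of 0, and the list of other shed membrane proteins has filled points on both sides.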

How the data were processed

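For every probe set and array the authors deposited a log2 expression value. RMA, oligo and limma are listed in the submitters' processing notes, with no version or role. RMA summaries compress differences at low signal. Of 49395 probe sets, 102 were controls, and of the rest 44988 had 1 gene symbol in the platform annotation, 1832 had several and 2473 were not listed. Symbols were checked through gene identifiers against RefSeq, where 27 probe sets had no match and 0 symbols changed. Groups came from the sample titles.

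The groups were compared in 1 linear model per gene (limma 3.58.1, lmFit then eBayes, R 4.3.3) over 18132 genes, calling a gene at a Benjamini-Hochberg adjusted p under 0.05. Fold changes on the log2 scale run shCSF2 minus shCtrl and carry moderated standard errors, and the number of arrays limits their precision. Probe sets were fitted the same way over all 44988. The fitting code was run on simulated independent noise with known changes added. That checks the code and does not test the results on these arrays. Figures were drawn with matplotlib 3.10.9.

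The members and lists were chosen with earlier results of these data known. Members that passed and were not dim, and ADAM10 and ADAM17, were described array by array, dim members by counts and ranges with those that passed named. Up to 4 passing genes with the largest change were named per list, or the 2 with the highest mean where none passed. ADAM8, ADAM9, ADAM15, ADAMTS2, ADAMTS10, ADAMTS12, ADAMTS15, ADAMTSL1, ADAMTSL4 and ACAN were described after their values were seen. List genes that no single-symbol probe set read are not analysed here. Alternatives were filters on dim genes, scaling by a further quantile step, by array median or by cyclic loess, array weights, robust eBayes with a trend, the mean of all or the most variable probe set, a replicate block, and leaving out each array.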

Additional observations from a re-analysis of the deposited data

How the results depend on the processing

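For the 13 members that passed and ADAM10, 215 pairs of a gene and an alternative were run. Of these, 188 kept direction and side of the threshold, 22 lost the call, 2 gained one (both ADAM10) and 3 were reversed. Other members that had not passed gained calls: ADAMTSL1 in 7 of 17 fits, ADAM15 in 4, ADAMTSL4 in 3, ADAMTS17 in 2, and ADAM9, ADAM11, ADAMTS4, ADAMTS10 and ADAMTS12 in 1 each. The reversals were ADAM12 at -0.091 with all probe sets averaged and -0.44 with the most variable, and ADAM28 at 0.027 with the most variable. ADAMTS1, ADAMTS5 and ADAMTS6 were called higher in all 17 fits, and ADAMTS16 and ADAMTS18 in the 16 that tested them. Of 375 pairs for pathway genes, 356 kept both, 19 lost the call and 0 reversed.

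Over all members, 2 fell among genes at or above the median level, where fewer are tested. Leaving out 1 array gave 7 to 8 members higher and 4 to 6 lower, and 4918 to 5142 genes called in all. Among ADAM genes, with genes of mean log2 value 5 or more 3 fell, above the median level 1 fell, and 1 rose with averaged and 0 with the most variable probe sets. Leaving out 1 array, 2 to 3 rose and 2 to 5 fell. Among ADAMTS genes 3 rose above the median level, 2 fell with averaged probe sets, and 0 to 1 fell without 1 array. For ADAMTSL, 1 rose with the limit of 5, quantile normalisation, median centring, cyclic loess, array weights and the most variable probe set. There 2 fell with the limit of 5 and with the replicate block and 0 with the most variable probe set. Without 1 array 0 to 1 rose and 1 to 2 fell.

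For inhibitors, 1 fell with quantile normalisation and with the block, and 1 to 2 without 1 array. For ADAM10 and ADAM17 maturation, 1 rose with averaged probe sets, and 1 to 2 fell without 1 array. For ligands of the EGF receptor family 0 fell under both filters and 2 with the most variable probe set. Of other shed proteins 3 rose with the block and 3 to 5 without 1 array. For gamma-secretase 0 rose, and for LGI ligands 1 fell, with averaged probe sets. For matrix genes 8 fell and 1 rose above the median level, and 10 to 13 fell without 1 array. Causes were not tested.

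Deviations of same-numbered arrays of the groups had correlations of 0.025, 0.053 and 0.033, and those of differently numbered arrays ranged from -0.076 to 0.044. These values do not settle whether the numbers pair the arrays, and the main fit did not pair them. With the replicate number as a block, 5469 genes, 7 members higher and 6 lower were called, but not the same 6: ADAM33 lost its call (adjusted p = 0.0786) and ADAMTSL4 gained one (-0.14, adjusted p = 0.0466).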

Other observations

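Shed membrane stubs are cut further by gamma-secretase, and of its 5 measured subunit genes, none of them dim, 3 fell and 1 rose. Over all genes 16% fell and 16.7% rose, and over those not dim 20.2% and 23.2%. The subunit genes NCSTN (-0.26 ± 0.05), APH1B (-0.26 ± 0.03) and PSENEN (-0.25 ± 0.04) were lower by limma. PSEN2, 1 of the alternative catalytic subunits, read 6.95, 6.84 and 6.86 in shCSF2 and 6.36, 6.33 and 6.42 in shCtrl cells (0.51 ± 0.05, limma adjusted p = 0.00028), by 1 of 6 probe sets. With all 6 averaged it was 0.14 and did not pass. Of the 4 LGI ligand genes of ADAM22 and ADAM23, 0 were called by limma in either direction, also at an unadjusted p of 0.05, and LGI4 (-0.06 ± 0.07) and LGI3 (0.03 ± 0.06) had the highest means. Of the 4 probe sets of LGI4, 2 passed as lower in the fit over probe sets.

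Neighbouring members were looked up in the RefSeq gene order, with chr8 left out. The count of members with promoter sequence leaves out chr8 as well. ADAMTS1 and ADAMTS5 are direct neighbours on chromosome 21 and both rose (0.26 and 0.51). ADAM21 and ADAM20 are neighbours on chromosome 14 and read -0.40 and 0.01. ADAMTS8 and ADAMTS15, neighbours on chromosome 11, did not pass (-0.05 and 0.03).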
